A study of Mus musculus with 4 samples.

Results

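Genes of the cell division machinery were examined as a set of 46, listed by symbol, out of the 13577 genes listed for nasal process (NP) tissues of E11.5 mouse embryos. They comprise 10 genes that act in G1 or at its exit, 20 genes of the entry into S phase and of DNA replication, and 16 genes of G2 and mitosis. All 46 were listed in every library. The tissue was measured by bulk RNA-Seq in 2 control and 2 ca-*Acvr1(A11)* mutant libraries, as titled, in the study's methods ca-*Acvr1[A11]* fl/+;*P0-Cre* embryos and ca-*Acvr1[A11]* +/+;*P0-Cre* controls, so that both groups carry *P0-Cre*. The transgene (line A11) encodes a constitutively active ACVR1, a type I BMP receptor, behind floxed sequence. *P0-Cre* acts in neural crest derivatives, so NP tissue also holds epithelial, neural, endothelial and blood cells without recombination. No source used here says whether a library was made from 1 embryo or from several, and the p-values therefore measure the spread between libraries, which may be technical. The genotype entries of the samples contradict the titles, since they give the transgene to the libraries titled control and *P0-Cre* alone to the libraries titled mutant. Controls and mutants are named here by title, and every direction below reverses if the genotype entries are the true ones.

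A dividing cell passes a series of switches. Cyclin D with CDK4 or CDK6, and then cyclin E with CDK2, phosphorylate the retinoblastoma family (RB1, RBL1), which releases E2F factors to transcribe the replication genes, among them the MCM helicase that CDC6 and CDT1 load onto origins. CDK1 with cyclin A and then cyclin B drives mitosis, and its genes are switched on later in the cycle by complexes that bind the CHR element, often beside CCAAT boxes, among them B-MYB and FOXM1. p21, the product of *Cdkn1a*, inhibits cyclin-CDK complexes and is a target of p53, and a cell that p21 arrests commonly silences the E2F and CHR genes. The neural crest mesenchyme and the epithelium of the nasal processes both divide quickly at this stage.

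Many promoters of the S phase and G2/M genes, but few of the G1 genes, carry the sequence signatures of these switches. In RefSeq promoter windows of GRCm38.p6, from 250 bases before to 50 bases after each start, 37 of the 46 genes had a sequence, and *Ccnd1*, *Ccnd2*, *Rb1*, *Ccne2*, *Mcm4*, *Ccna2*, *Cdc25c*, *Aurkb* and *Foxm1* had none. Both strands were searched for an E2F site (TTTCCCGC, TTTCGCGC, TTTGCCGC or TTTGGCGC), the CHR element (TTTGAA or TTCGAA) and the CCAAT box (CCAAT). 6 promoters were chosen to show the 2 types, as the 150 bases before the start, written 5′ to 3′ on the strand of the gene, with every match on either strand in capitals. *Cdk2*, *Mcm6* and *Cdc6* stand for the S phase genes, and *Cdk1*, *Cdc20* and *Top2a* for the G2/M genes.
Cdk2: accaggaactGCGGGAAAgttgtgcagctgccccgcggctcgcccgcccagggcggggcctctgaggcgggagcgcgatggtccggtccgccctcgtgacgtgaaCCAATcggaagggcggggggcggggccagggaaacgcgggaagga
Mcm6: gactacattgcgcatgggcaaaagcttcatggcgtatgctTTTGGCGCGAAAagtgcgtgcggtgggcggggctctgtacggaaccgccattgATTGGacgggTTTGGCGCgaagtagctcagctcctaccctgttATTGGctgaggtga
Cdc6: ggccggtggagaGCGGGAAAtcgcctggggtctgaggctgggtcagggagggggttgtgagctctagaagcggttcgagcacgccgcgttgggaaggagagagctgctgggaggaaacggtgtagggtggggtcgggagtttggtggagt
Cdk1: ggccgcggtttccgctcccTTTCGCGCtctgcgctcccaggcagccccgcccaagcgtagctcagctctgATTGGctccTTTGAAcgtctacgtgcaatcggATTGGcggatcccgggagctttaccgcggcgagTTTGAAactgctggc
Cdc20: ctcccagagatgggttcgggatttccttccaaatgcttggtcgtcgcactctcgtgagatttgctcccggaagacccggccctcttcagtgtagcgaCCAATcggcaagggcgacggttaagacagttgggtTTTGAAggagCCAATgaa
Top2a: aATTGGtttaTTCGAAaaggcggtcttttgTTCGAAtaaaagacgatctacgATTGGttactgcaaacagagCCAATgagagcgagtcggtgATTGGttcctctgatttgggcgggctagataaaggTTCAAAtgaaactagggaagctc

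The *Cdk2* stretch (chr10:128705052-128705201, minus strand) held 1 E2F site, written GCGGGAAA on this strand, and 1 CCAAT box. *Mcm6* (chr1:128359706-128359855, minus strand) had E2F sites on both strands that overlap in TTTGGCGCGAAA, a further E2F site and 2 CCAAT boxes, which read ATTGG here. *Cdc6* (chr11:98908001-98908150, plus strand) had 1 E2F site, and its stretch lies in an intron of a longer transcript model in GENCODE. The G2/M promoters look different. *Cdk1* (chr10:69352913-69353062, minus strand) had 2 CHR elements and 2 CCAAT boxes together with 1 E2F site, *Cdc20* (chr4:118437344-118437493, minus strand) had 1 CHR element and 2 CCAAT boxes, and *Top2a* (chr11:99024190-99024339, minus strand) had 3 CHR elements and 4 CCAAT boxes. In GENCODE the stretches of *Cdk1* and *Cdc20* share 26 and 9 bases with the gene's own first exon and that of *Cdk2* shares 22 bases with an exon of its neighbor *Pmel*, while the other 3 share 0.

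Over the whole set, the E2F site was found in 11 of 18 S phase promoters (61.1%), in 1 of 7 G1 promoters (*Rbl1*) and in 1 of 12 G2/M promoters (*Cdk1*). It was found in 2.6% of the 27025 mouse genes with a window, and in 4.73% of the 9751 of them tested for change below. The CHR element was found in 10 of 12 G2/M promoters (83.3%), in 5 of 18 S phase promoters (27.8%) and in 0 of 7 G1 promoters. Its share was 21.7% of all genes and 15.7% of the tested ones. A gene with several windows, such as *E2f2* or *Mcm7*, counted if any of them matched. CCAAT boxes were common in all genes (41.1%) and were found in 11 of 12 G2/M, 14 of 18 S phase and 4 of 7 G1 promoters. The plot of motif positions shows this division of the set. A match is only a match of letters, and its absence says nothing of the factor.

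**Figure D1:**
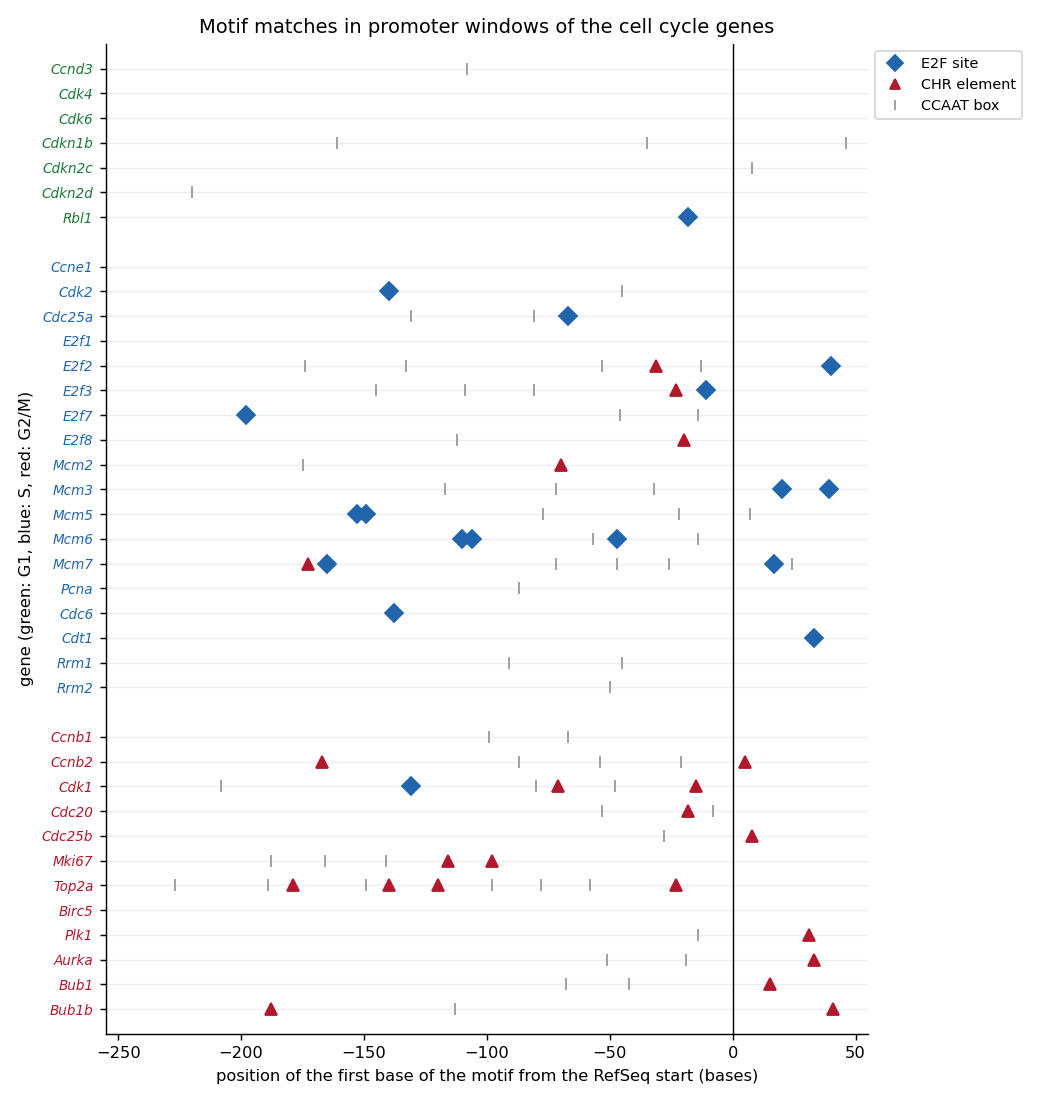
Each row is a cell cycle gene with a RefSeq promoter window, the x axis gives the position of a motif's first base from the start site in bases, and each symbol is an exact match on either strand. E2F sites lie mostly in the rows of S phase genes (11 of 18), and CHR elements mostly in the rows of G2/M genes (10 of 12).

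The libraries were made with the QuantSeq kit, which captures the 3′ end of transcripts, so that the number of reads does not grow with transcript length and levels of different genes can be set side by side without dividing by length. The authors deposited CPM values (reads scaled to the library total). Nearly all of them were whole multiples of the value of 1 read, from 0.415 to 0.511 CPM, which places the totals between 1956831 and 2408827 reads. The values of all 46 genes were whole reads, and 43 of them had at least 20 reads in every library. *Ccnd3*, *Cdk6* and *Cdkn2c* had fewer than 15 reads in every library, and only large differences could have been detected in them. limma was run on log2(CPM + 1) for 12462 genes, those averaging more than 1 CPM, and a gene was called at a Benjamini-Hochberg adjusted p under 0.05. A log2 fold change below is ca-*Acvr1(A11)* over control on that scale, which understates the change of low genes.

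The question put to these genes was whether they moved with *Cdkn1a*. *Cdkn1a* itself, which is not a member, was at 29.1 and 32.4 CPM in controls and at 189.7 and 164 CPM in mutants. It rose 5.75-fold in the mean, with a log2 fold change of 2.48 (SE 0.17, 95% interval 2.14 to 2.83, n = 2 per group, adjusted p = 1.46e-10 from limma), and was called with every alternative analysis and with any library left out.

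None of the 46 cell cycle genes passed the same test. limma called 0 of them, where it called 0.305% of all genes tested as higher and 0.594% as lower. At shares this low, 0 calls in a set of this size does not set these genes apart from other genes. The smallest adjusted p in the set was 0.152, for *Cdk2*. At an unadjusted p under 0.05 there were 4 genes with a higher level (*Ccnd1*, *Ccnd2*, *E2f2* and *Cdt1*) and 2 with a lower level (*Cdk2* and *Cdkn2d*) in mutants, 13.0% of the set against 9.55% of all genes (5.42% higher and 4.12% lower). On the recovered reads, edgeR's quasi-likelihood test called 0 of the 44 members it tested, where it called 0.384% of all genes as higher and 0.818% as lower, and it gave 3 members with a higher and 3 with a lower level at an unadjusted p under 0.05 (4.72% and 5.2% of all genes). DESeq2 called 0 of 46, against 0.0516% and 0.184% of all genes, and gave 1 and 1 at an unadjusted p under 0.05 (0.952% and 1.62%).

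For most of the genes the data also bound the size of a change on the log2(CPM + 1) scale. The 95% interval lay within 1 either side of 0 for 43 of 46 genes (93.5%). The share was 68.1% over all genes tested, and it depends on read number. At high levels this limit is close to a 2-fold change. For lower genes it allows a change past 2-fold in CPM, as for *Ccnd3* with its 9 to 12 reads. The 3 genes whose interval went past the limit were *Cdk6*, *Cdkn2c* and *E2f2*. For 33 of the 46, 5 in G1, 16 in S and 12 in G2/M, the interval lay within a 1.5-fold change on the log2(CPM + 1) scale. Over all genes tested this held for 4227 of 12462, and it too depends on read number. The median absolute log2 fold change was 0.13 in the set and 0.20 over all genes tested. In the set the 2 control libraries differed from each other by a median of 0.15 and the 2 mutant libraries by 0.19. Over all genes tested these replicate differences were larger too, at 0.25 and 0.22. *Cdk2* and *E2f2* were the 2 members whose log2 fold change was 0.5 or more in size. The levels plot shows how closely the 4 libraries lie for most genes.

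**Figure D2:**
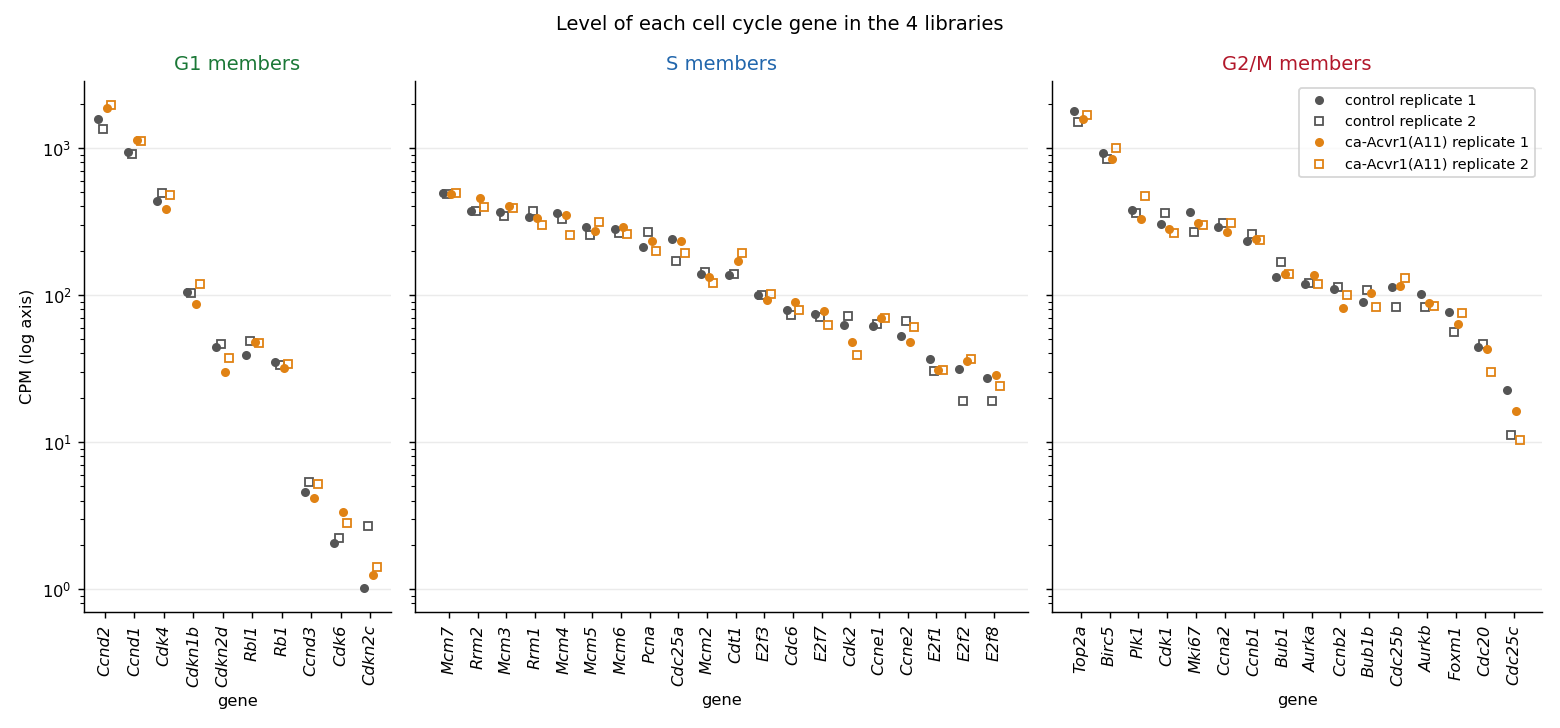
The level of each of the 46 genes in CPM on a log axis, with 1 point per library, in 3 panels for the G1, S and G2/M genes. For 30 of the 46 genes the points of the 2 groups overlap. Groups without overlap make up 34.8% of the set and 38.8% of all genes tested. Levels run from 1.02 CPM (*Cdkn2c*) to 1954 CPM (*Ccnd2*).

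Among the G1 genes, *Ccnd1* and *Ccnd2* had the highest levels and lay above control in both mutant libraries. They encode D cyclins, which couple growth signals to the cycle. *Ccnd2* (chr6:127125162-127152193, minus strand) was at 1565 and 1341 CPM in controls and at 1861 and 1954 CPM in mutants. Its groups did not overlap, but its log2 fold change of 0.40 (SE 0.14, 95% interval 0.10 to 0.69) did not pass the test (adjusted p = 0.305 from limma). *Ccnd1* (chr7:144929931-144939925, minus strand) was at 933 and 904 CPM in controls and at 1125 and 1112 CPM in mutants. Here too all control values lay below all mutant values, with a log2 fold change of 0.28 (SE 0.14, 95% interval 0.01 to 0.56, adjusted p = 0.507 from limma). *Ccnd3*, the third D cyclin, was near the limit of detection at 4.60 and 5.33 against 4.15 and 5.15 CPM.

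The kinase partners of the D cyclins differed widely in level. *Cdk4* was at 433 and 491 CPM in controls and at 385 and 479.6 CPM in mutants, with overlapping groups and a log2 fold change of −0.10 (95% interval −0.39 to 0.19). *Cdk6* was at 2.04 and 2.22 against 3.32 and 2.81 CPM, which is 4 and 5 reads against 8 and 6. Far more reads were thus counted for *Cdk4* than for *Cdk6* in every library. The 3′ end of *Cdk4* overlaps *Tspan31* on the opposite strand, and the counting strand is not given, so reads of *Tspan31* may be among them.

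The inhibitors and pocket proteins, which hold G1 cells back, gave no call either. *Cdkn2d*, which encodes the CDK4/6 inhibitor p19INK4D, was at 43.9 and 46.2 CPM in controls and at 29.9 and 37.4 CPM in mutants, all below control, with a log2 fold change of −0.42 (SE 0.20, adjusted p = 0.515 from limma). *Cdkn1b*, which encodes the p21 relative p27, was at 105 and 104 against 86.3 and 119 CPM, with the mutant libraries on either side of the controls. *Cdkn2c*, another INK4 inhibitor, was at 1.02 and 2.66 against 1.25 and 1.40 CPM, too few reads to compare. The pocket proteins overlapped between groups as well: *Rb1* was at 35.3 and 33.3 against 32.0 and 34.2 CPM, and *Rbl1*, which encodes p107, at 38.8 and 48.4 against 47.7 and 47.3 CPM.

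Summed over the 10 G1 genes, the level was 3162 and 2978 CPM in controls and 3577 and 3793 CPM in mutants, a ratio of means of 1.20. The sum was mostly *Ccnd1* and *Ccnd2*, which made up from 75.4% to 83.5% of it. Without them the sums were 664 and 733 against 589.9 and 727 CPM, a ratio of 0.942 with overlapping groups. The plot of summed levels shows the G1 sum apart from the other 2.

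**Figure D3:**
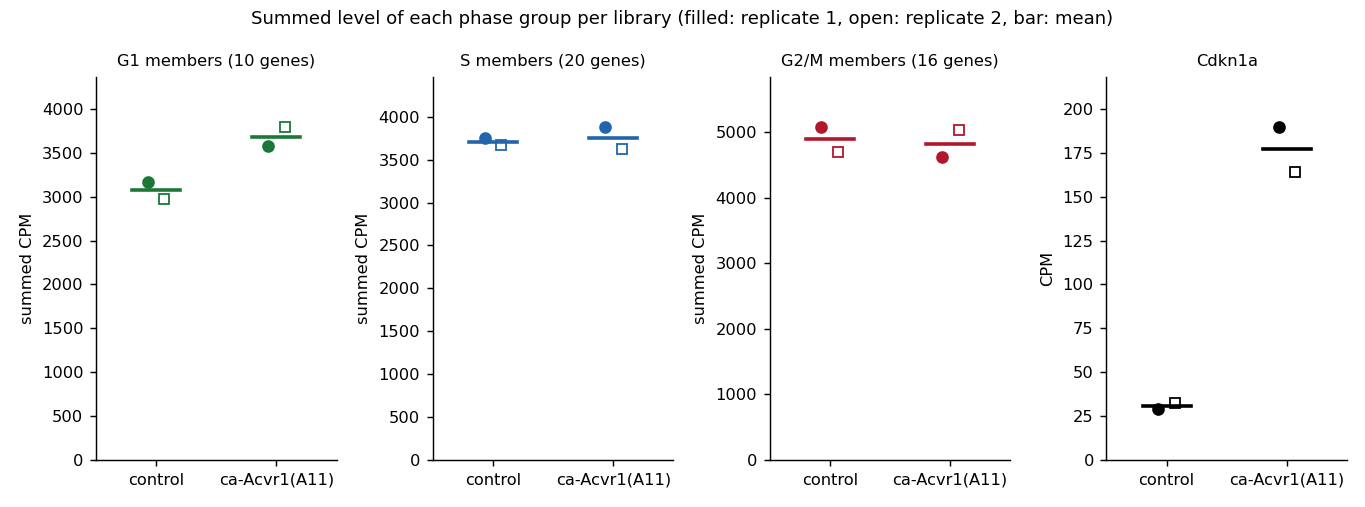
Summed CPM of the G1, S and G2/M genes and the CPM of *Cdkn1a* on linear axes from 0, with filled points for replicate 1, open points for replicate 2 and a bar at the mean of the 2 libraries of a group. The mean for ca-*Acvr1(A11)* over control is 1.20 for G1, 1.01 for S and 0.987 for G2/M, and 5.75 for *Cdkn1a*.

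The S phase genes begin with the kinase of the G1/S switch, which had the lowest log2 fold change of the set. *Cdk2* (chr10:128697939-128705031, minus strand) was at 62.9 and 71.5 CPM in controls and at 48.2 and 38.8 CPM in mutants. Both mutant values lay below both control values, and the log2 fold change was −0.62 (SE 0.18, 95% interval −0.9997 to −0.24, adjusted p = 0.152 from limma). Its partners did not share this: *Ccne1* was at 61.3 and 63.5 against 69.7 and 70.2 CPM, and *Ccne2* at 52.6 and 67.0 against 48.2 and 60.4 CPM. *Cdc25a*, the phosphatase that activates CDK2, was at 239.7 and 171 CPM in controls and at 232 and 194 CPM in mutants, with the mutant values inside the control range.

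The E2F genes were at 19.1 to 101 CPM, and all but *E2f2* overlapped between the groups. *E2f2*, an activator, was at 31.2 and 19.1 CPM in controls and at 35.7 and 37.0 CPM in mutants, with a log2 fold change of 0.55 (SE 0.23, 95% interval 0.07 to 1.03, adjusted p = 0.424 from limma). The control libraries differed from each other more than the nearer of them differed from the mutant libraries. The other activators were close to even, *E2f1* at 36.8 and 30.2 against 30.7 and 30.9 CPM and *E2f3* at 101 and 100.3 against 91.7 and 101 CPM. *E2f7* and *E2f8*, the repressors that end the E2F wave, had log2 fold changes of −0.06 (95% interval −0.41 to 0.29) and 0.19 (95% interval −0.30 to 0.69).

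Among the analyses with 1 library left out, *Cdk2*, *Ccnd2* and *E2f2* were called only without control replicate 1. When it was left out, and the lone control library was assumed to vary like the mutant libraries, limma called *Ccnd2* (log2 fold change 0.51, adjusted p = 0.00678) and *E2f2* (0.89, adjusted p = 0.0259) as higher and *Cdk2* (−0.71, adjusted p = 0.0385) as lower. Without control replicate 2 in its place none of the 3 was called, with log2 fold changes of 0.29 for *Ccnd2* (adjusted p = 0.544), 0.21 for *E2f2* (adjusted p = 0.954) and −0.53 for *Cdk2* (adjusted p = 0.481). With a mutant library left out, their log2 fold changes ran from 0.36 to 0.43, from 0.53 to 0.58 and from −0.77 to −0.47, again with no call. The analysis without control replicate 1 called 1.93% of all genes as higher and 1.77% as lower, 462 genes against 112 with all libraries.

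The replicative helicase lay close to even. The 6 genes *Mcm2* to *Mcm7* summed to 1927 and 1829.9 CPM in controls and to 1934 and 1837 CPM in mutants, a ratio of means of 1.00. *Mcm7*, the highest of them, was at 494 and 489.7 against 487 and 495 CPM, and *Mcm6*, with its overlapping E2F sites, at 280.0 and 265 against 289 and 261 CPM. The 6 log2 fold changes ran from −0.20 (*Mcm4*, 359 and 331 against 351 and 256 CPM) to 0.16 (*Mcm3*, 366 and 344 against 404 and 390.3 CPM), and for all 6 genes the 95% interval lay within a 1.5-fold change. *Mcm2* was at 138 and 143 against 133 and 121 CPM and *Mcm5* at 289 and 257 against 271 and 314 CPM.

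The factors CDT1 and CDC6 load the helicase, and neither of their genes passed the test. *Cdt1* (chr8:122568015-122573554, plus strand), a licensing factor that is normally destroyed once S phase begins, was at 136 and 139.8 CPM in controls and at 169.8 and 193 CPM in mutants. Both mutant values lay above control, with a log2 fold change of 0.39 (SE 0.15, 95% interval 0.09 to 0.69, adjusted p = 0.322 from limma). *Cdc6*, its partner in loading, was at 79.2 and 73.2 against 89.7 and 78.6 CPM, with overlapping groups.

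The genes that supply the replication fork gave no common direction. *Pcna*, which encodes the sliding clamp and is also a p53 target, was at 213 and 267 CPM in controls and at 232 and 199.8 CPM in mutants. *Rrm1* and *Rrm2* encode the subunits of ribonucleotide reductase, which makes deoxynucleotides. *Rrm1* was at 337 and 370.2 against 334 and 298 CPM and *Rrm2* at 373 and 372 against 457 and 395 CPM, without overlap and in opposite directions, with log2 fold changes of −0.16 (95% interval −0.44 to 0.12) and 0.19 (95% interval −0.09 to 0.47). Over the 20 S phase genes the median log2 fold change was 0.00, with 10 above 0 and 10 below, and the sums were 3751 and 3665 against 3879 and 3619.5 CPM.

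The mitotic kinase and its cyclins lay at or below the control level. *Cdk1* (chr10:69335146-69352938, minus strand) was at 302 and 359.6 CPM in controls and at 282 and 264 CPM in mutants, both below control, with a log2 fold change of −0.27 (SE 0.14, 95% interval −0.55 to 0.02, adjusted p = 0.57 from limma). *Ccnb2* was likewise below control in both mutant libraries, at 109 and 113 against 81.4 and 99.7 CPM (log2 fold change −0.30, 95% interval −0.63 to 0.03, adjusted p = 0.58 from limma). *Ccnb1*, the main mitotic cyclin, was at 234 and 261 against 239 and 236 CPM, and *Ccna2*, the cyclin of late S phase and G2, at 288 and 309 against 269 and 308 CPM, and both overlapped between the groups.

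The CDC25 phosphatases activate CDK1, and APC/C with CDC20 ends mitosis by destroying cyclin B. *Cdc25b*, which triggers entry into mitosis, was at 112 and 83.5 CPM in controls and at 115 and 131 CPM in mutants, the only G2/M gene with both mutant values above control (log2 fold change 0.34, 95% interval −0.00 to 0.67, adjusted p = 0.529 from limma). *Cdc25c* was at 22.5 and 11.1 against 16.2 and 10.3 CPM, and the spread within each group was as wide as the distance between them. *Cdc20* (chr4:118432901-118437352, minus strand) was at 44.5 and 46.2 against 42.8 and 29.9 CPM, without overlap (log2 fold change −0.33, 95% interval −0.75 to 0.09, adjusted p = 0.677 from limma).

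The genes most used as proliferation markers overlapped between the groups. *Mki67*, which encodes the Ki-67 antigen, was at 365 and 269 CPM in controls and at 309.7 and 299 CPM in mutants, with both mutant values inside the control range (log2 fold change −0.04, 95% interval −0.34 to 0.26). *Top2a*, the topoisomerase that untangles sister chromatids, was the highest of the G2/M genes, at 1770.2 and 1507 against 1563 and 1677 CPM (−0.01, 95% interval −0.31 to 0.28). *Birc5*, which encodes survivin of the chromosomal passenger complex, was at 929.6 and 845 against 840.2 and 1002 CPM (0.05, 95% interval −0.24 to 0.34). None of these 3 markers had a mean difference as large as the difference between its 2 control libraries. These are RNA levels of whole tissue. The paper reports reduced cell proliferation by pH3 staining in mutant mesenchyme of the medial and lateral nasal processes at E11.5. It reports no effect on proliferation in the epithelium. The staining and the RNA levels differ in what they measure and in the cells they cover.

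The kinases and checkpoint proteins of the spindle gave no call. *Plk1*, *Aurka* and *Aurkb*, the polo-like and Aurora kinases, had log2 fold changes of 0.10, 0.08 and −0.09, and their groups overlapped. *Plk1* was at 378 and 359 against 329 and 471 CPM, so that its 2 mutant libraries lay on either side of control. *Bub1* and *Bub1b*, which delay anaphase until chromosomes are attached, had log2 fold changes of −0.09 each, and *Foxm1*, the forkhead activator of these genes, was at 76.7 and 56.4 against 63.9 and 74.9 CPM (0.07, 95% interval −0.30 to 0.44). Over the 16 G2/M genes 5 log2 fold changes were above 0 and 11 below, with a median of −0.06. For all 16 the 95% interval lay within 1 either side of 0 on the log2(CPM + 1) scale.

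**Figure D4:**
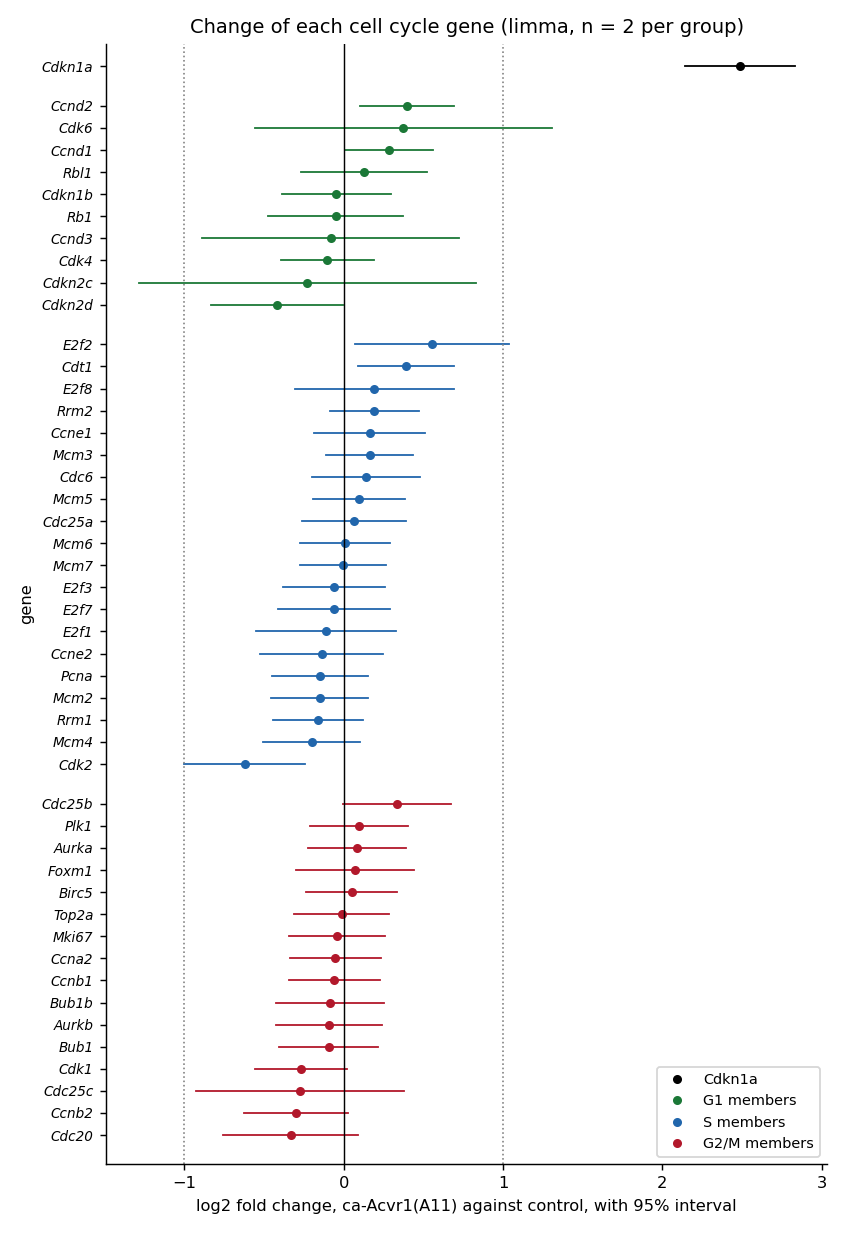
The log2 fold change of each of the 46 genes, ca-*Acvr1(A11)* over control, with its 95% interval from limma (n = 2 libraries per group), ordered and colored by phase, with *Cdkn1a* (2.48) on top for scale and dotted lines at 1 either side of 0. The intervals of 40 genes include 0, none of the 46 passed the adjusted test, and *Cdk2* at −0.62 and *E2f2* at 0.55 lie farthest from 0.

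Side by side, the 3 phases differed little. The median log2 fold change was −0.05 in G1 (4 above 0 and 6 below), 0.00 in S and −0.06 in G2/M, against 0.03 over all genes tested, of which 45.8% were below 0. Groups without overlap were seen for 9 genes with higher and 7 with lower values in mutants, 34.8% of the set against 38.8% of all genes (21.9% higher and 16.8% lower). By phase these were 3 higher and 1 lower in G1, 5 higher and 3 lower in S, and 1 higher and 3 lower in G2/M. The ratio of the S sum to the G2/M sum was 0.739 and 0.780 in control and 0.840 and 0.720 in mutants, so that the mutant values lay on either side of the control values. Members grouped by promoter had medians of 0.06 for the 13 with an E2F site, −0.04 for the 15 with a CHR element and −0.06 for the 29 with a CCAAT box, groups that share genes. In bulk tissue, fewer cells of a type and less RNA per cell cannot be told apart.

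Genes around the set were read from lists of the same pathways. The list of 10 genes that arrest or slow the cycle was written with earlier results of these data known. It includes *Cdkn1a*, whose rise was the starting point, so its count of calls is a description and no test. Of the 10, 8 were tested and 3 were called, all higher, against 0.305% of all genes called higher and 0.594% called lower (*Cdkn2a* was not in the table used here and *Cdkn2b* was below 1 CPM). Besides *Cdkn1a*, these were *Ccng1*, a p53 target that encodes cyclin G1, at 46.5 and 38.6 CPM in controls and at 191 and 151 CPM in mutants (log2 fold change 1.98, SE 0.17, adjusted p = 1.79e-08 from limma), and *Btg2*, an antiproliferative p53 target. *Btg2* rose from 58.3 and 54.6 to 89.3 and 93.1 CPM (log2 fold change 0.68, SE 0.17, adjusted p = 0.0411 from limma), but the call was lost with DESeq2 (adjusted p = 0.643) and in limma without control replicate 2 (0.0924), without mutant replicate 1 (0.168) and without mutant replicate 2 (0.288). The other arrest genes were not called. *Cdkn1c*, which encodes p57 and was the most abundant CDK inhibitor measured, was at 513 and 634 against 491 and 482 CPM (−0.23, 95% interval −0.51 to 0.06). *Ccng2*, which encodes cyclin G2, was at 58.3 and 95.4 against 54.4 and 30.9 CPM (−0.85, SE 0.23, adjusted p = 0.0853 from limma), and its call depended on the library left out. It was called as lower without control replicate 1 (−1.20, adjusted p = 7.68e-06) and without mutant replicate 1 (−1.25, adjusted p = 0.000201), and was not called without control replicate 2 (−0.50, adjusted p = 0.558) or without mutant replicate 2 (−0.45, adjusted p = 0.80).

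Of 109 further tested genes of G1, replication, mitosis and checkpoints, limma called 0, against 0.305% of all genes called higher and 0.594% called lower. With shares this low, a count of 0 does not set them apart from other genes either. At an unadjusted p under 0.05 there were 2 higher and 5 lower, against 5.42% and 4.12% of all genes, and the median log2 fold change was 0.01. By list the medians were 0.01 for 13 G1 genes, 0.01 for 44 replication genes, 0.02 for 43 mitosis genes and −0.01 for 9 checkpoint genes. In G1 the smallest p belonged to *Lin9*, a subunit of the complex that binds CHR elements (56.7 and 61.7 CPM in controls, 49.4 and 42.6 CPM in mutants), *E2f4*, an E2F factor of resting cells (54.7 and 58.6 against 73.1 and 66.0 CPM), and *Cks1b*, a CDK-binding subunit (891 and 926 against 771 and 839 CPM). Among the replication genes it belonged to *Gins2*, part of the replicative helicase, at 7.67 and 8.43 against 4.98 and 2.81 CPM, *Pold2*, a DNA polymerase subunit, at 26.6 and 19.98 against 20.8 and 11.7 CPM, and *Chaf1a*, a histone chaperone, at 84.3 and 73.7 against 87.2 and 106 CPM. The log2 fold changes of these 3 were −0.92, −0.53 and 0.28, with adjusted p of 0.422, 0.571 and 0.641 from limma. Among the mitosis genes *Ube2c*, the ubiquitin-conjugating enzyme of APC/C, was at 211 and 162 against 238 and 251 CPM, *Kif2c*, a microtubule depolymerase, at 87.4 and 90.1 against 70.2 and 61.8 CPM, and *Gtse1*, a G2 protein that restrains p53, at 24.5 and 40.8 against 61.9 and 37.4 CPM, with log2 fold changes of 0.40, −0.43 and 0.59 and adjusted p of 0.313, 0.356 and 0.397 from limma. The checkpoint genes *Rad17*, which loads the checkpoint clamp, and the kinase genes *Atm* and *Atr* had log2 fold changes of −0.31, 0.22 and 0.11 and adjusted p of 0.515, 0.758 and 0.927 from limma. The cumulative plot sets these genes against all genes.

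**Figure D5:**
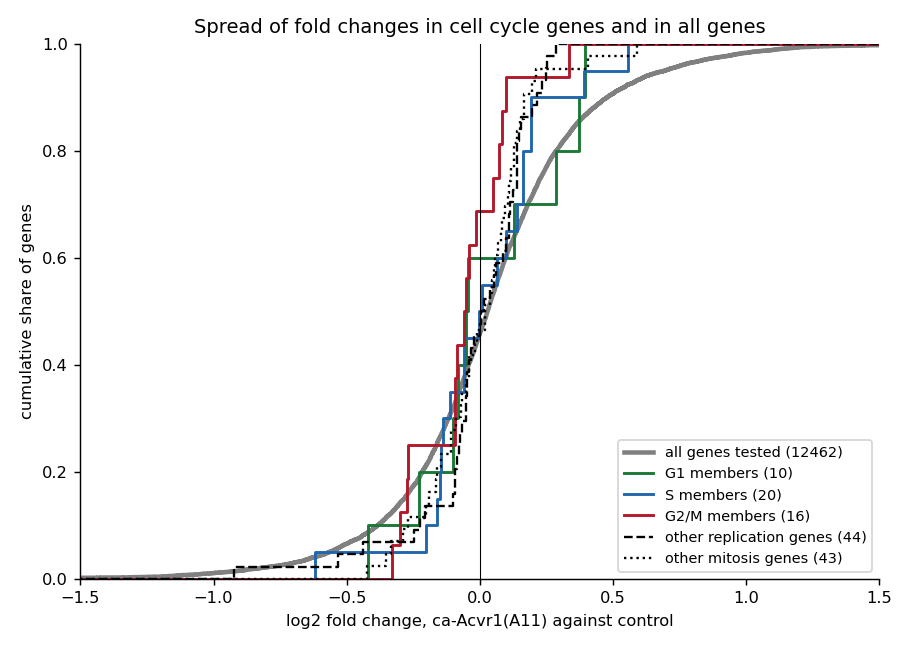
Cumulative share of genes (y axis) at or below each log2 fold change (x axis) for the members by phase, the 44 further replication genes, the 43 further mitosis genes and all 12462 genes tested. The medians of the cell cycle curves lie between −0.06 and 0.02 against 0.03 for all genes, and few of these genes reach 0.5 on either side.

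Markers of some cell types, but not of all, differed between the groups beside these values. The counts called below stand against 0.305% of all genes called higher and 0.594% called lower by limma. Markers of neural crest mesenchyme summed to 3171 and 3705 CPM in controls and to 2282 and 2279 CPM in mutants, with 11 of 15 called lower, among them *Prrx1* and *Alx1*. 2 of these 11, *Pdgfra* and *Pdgfrb*, hold values that are not whole reads, and without them 9 of 13 were called, with sums of 3032 and 3516 against 2250.1 and 2237 CPM. Epithelial markers summed to 308 and 287 against 465 and 427 CPM, with 2 of 15 called higher (*Epcam* and *Cdh1*), and neural markers to 1989 and 1938 against 2385 and 2474 CPM, with 0 of 15 called. Macrophage markers summed to 43.4 and 43.1 against 68.1 and 104 CPM, with 1 of 8 called, and endothelial markers to 218 and 225 against 227 and 214 CPM, with 0 of 10 called. Erythroid markers summed to 7028 and 8483 against 6710.3 and 7213 CPM (0 of 6 called) and muscle markers to 8.69 and 8.88 against 9.96 and 11.2 CPM (0 of 4 called). The cell cycle values are averages over this mixture, and its part in them was not tested.

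Some of the 46 genes share their 3′ end with another gene. Within the last 1000 bases, *Ccnd1*, *Ccnd2*, *Ccnd3*, *Ccna2*, *Ccne2*, *Cdc20*, *Cdk4*, *Mcm7* and *Rb1* overlap an exon of a gene on the opposite strand, and *Foxm1* and *Mcm7* overlap genes on the same strand. The strand setting of the authors' counting is not given in the sources used here, so reads of these genes and of their neighbors may not have been separated. The last 300 bases of *Mcm5* and *Mcm7* also match transcripts of other genes at 95% identity or more over at least 100 bases.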

How the data were processed

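Total RNA of E11.5 NP tissues was made into QuantSeq 3′ libraries by the authors, who deposited a table of CPM values scaled to library totals, with 13577 genes, 33470 empty lines and 0 unused columns of values. The submitters' processing notes name mm10, STAR, featureCounts 1.6.4 and DESeq2, without role or order, and the counting strand is not given in the sources used here. Samples were grouped by title into 2 control and 2 ca-*Acvr1(A11)* libraries.

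Reads were recovered from the steps between CPM values within a tolerance of 0.02 reads, which gave whole reads for 99.87% to 99.98% of the values of a library. The other values lie in 22 genes, none of them a member. Totals were 1956831 and 2252586 reads in control and 2408827 and 2137027 reads in ca-*Acvr1(A11)* libraries. The main test was limma 3.58.1 (R 4.3.3) on log2(CPM + 1) with a mean-variance trend, over 12462 genes with a mean above 1 CPM, adjusted by the Benjamini-Hochberg method at 0.05. edgeR 4.0.16 (quasi-likelihood) and DESeq2 1.42.0 were run on the recovered reads without the 22 genes. Intervals are limma's 95% intervals. Other alternatives were a pseudocount of 0.1, no filter, a mean above 5 CPM, TMM and RLE scaling, the replicate number as a block, each library left out and, added after seeing the data, the omission of the 22 genes.

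Members and lists (arrest, G1, replication, mitosis and checkpoint genes, and markers of epithelium, neural tissue, mesenchyme, erythroid cells, endothelium, macrophages and muscle) were written by hand and chosen with earlier results of these data known. Every member was to be named, with *Cdkn1a*, and of each other cell cycle list the genes called or, with none called, the 3 with the smallest p, and *Cdkn1c* and *Ccng2* were chosen after their values were seen. The S and G2/M groups were formed by the phase in which a gene is known to act. Coordinates are from GENCODE M21 (GRCm38), where all 46 members were found, promoters are RefSeq windows of GRCm38.p6, and similar 3′ ends were searched with blastn 2.17.0.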

Additional observations from a re-analysis of the deposited data

How the results depend on the processing

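No alternative other than the replicate block and the omission of 1 library called a member. The block on the replicate number, which the labels do not tie to a shared litter or day (correlation of same-numbered deviations 0.067 over 12462 genes), called 0 members as higher and 1 as lower (*Cdk2*, adjusted p = 0.0466 from limma), *Ccng2* as lower (adjusted p = 0.00067) and 229 genes in all against 112. DESeq2 called 32 genes, and limma without control replicate 1 called 462. With 1 library left out, from 0 to 2 members were called as higher and from 0 to 1 as lower, and the medians of the log2 fold change ran from −0.15 to 0.10 in G1, from −0.02 to 0.053 in S, from −0.074 to 0.062 in G2/M and from −0.040 to 0.016 over all members. The median over all members was −0.077 with TMM scaling, −0.077 with RLE scaling and −0.080 with DESeq2, against −0.048. Over all the genes that each of these tested, the median moved down as well. It was 0.00062 with TMM scaling, 0.0016 with RLE scaling and 0.0185 with DESeq2, against 0.0286. *Mcm6*, at 0.01, changed sign with TMM (−0.022), RLE (−0.021), edgeR (−0.0068) and DESeq2 (−0.018), and the cause was not tested. *Cdkn1a* stayed between 2.38 and 2.59 with a library left out. The sign of 28 members changed with a library left out, and their log2 fold changes then ran from −0.21 to 0.047 for *Ccnd3*, −0.26 to 0.056 for *Cdk4*, −0.27 to 0.18 for *Cdkn1b*, −0.66 to 0.20 for *Cdkn2c*, −0.026 to 0.28 for *Rbl1*, −0.31 to 0.034 for *Ccne2*, −0.18 to 0.31 for *Cdc25a*, −0.25 to 0.028 for *E2f1*, −0.13 to 0.0081 for *E2f3*, −0.22 to 0.10 for *E2f7*, −0.049 to 0.43 for *E2f8*, −0.43 to 0.025 for *Mcm4*, −0.0093 to 0.21 for *Mcm5*, −0.065 to 0.081 for *Mcm6*, −0.015 to 0.0079 for *Mcm7*, −0.31 to 0.017 for *Pcna*, −0.15 to 0.047 for *Ccna2*, −0.14 to 0.021 for *Ccnb1*, −0.75 to 0.20 for *Cdc25c*, −0.26 to 0.18 for *Mki67*, −0.13 to 0.10 for *Top2a*, −0.077 to 0.18 for *Birc5*, −0.16 to 0.35 for *Plk1*, −0.012 to 0.18 for *Aurka*, −0.24 to 0.056 for *Aurkb*, −0.26 to 0.070 for *Bub1*, −0.24 to 0.072 for *Bub1b* and −0.15 to 0.29 for *Foxm1*. Depth limits *Ccnd3*, *Cdk6* and *Cdkn2c*, which had fewer than 15 reads in every library.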

Other observations

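The same promoter motifs were read in tested genes outside the set. Of 9714 such genes with a promoter window, 448 held an E2F site, with a median log2 fold change of 0.03, 2 called higher and 2 called lower by limma. The 1516 genes with a CHR element had a median of 0.03, with 6 called higher and 9 lower, and the 751 with both a CHR element and a CCAAT box had a median of 0.03, with 3 called in each direction. All genes tested had a median of 0.03, with 0.305% called higher and 0.594% called lower.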
